A study of Arabidopsis thaliana with 30 samples.

Results

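PRK, RCA and CaS are 3 nuclear genes for chloroplast proteins, and they were chosen here by name. A probe set belonged to the set if the array annotation matched it to exactly 1 of the 3 genes. The choice was made with earlier results of these data known, so the tests below may not be independent of it. Each gene had 1 probe set, so the set holds 3 of the 13350 genes matched by the annotation and 3 of the 22746 probe sets tested. PRK is AT1G32060 on chromosome 1, RCA is AT2G39730 on chromosome 2 and CaS is AT5G23060 on chromosome 5. All 3 genes passed the filter on dim values (a mean log2 signal of at least 5) that was tried as an alternative.

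PRK encodes phosphoribulokinase, which uses ATP to regenerate ribulose bisphosphate, the sugar to which Rubisco adds carbon dioxide in the Calvin cycle. The enzyme is switched on in the light through thioredoxin, and it is held inactive in the dark in a complex with glyceraldehyde phosphate dehydrogenase and the small protein CP12. RCA encodes Rubisco activase, an ATP-driven motor protein that pulls inhibitory sugar phosphates off Rubisco and is known for its sensitivity to heat. CaS encodes a calcium-sensing protein of the thylakoid membrane that takes part in calcium signals of the chloroplast, in closure of stomata and in the adjustment of photosynthesis to strong light.

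The samples were seedlings of 5 Arabidopsis thaliana lines, all in the Col-0 background, with roots removed, at an age of 12 days and after 7 days of adaptation to continuous dim light of 10 µE per square metre and second on agar with 1% sucrose. Each line was taken at 3 h of high light and at 0 h, with 3 biological replicates, which gave 10 groups and 30 arrays. The 3 h seedlings had spent 3 h in the dark and then 3 h under 1000 µE in the same unit, and the 0 h seedlings had no high light. The sources held here do not say if 0 h seedlings were taken ahead of the darkness or at its end, nor at what time of day. A difference between 3 h and 0 h may therefore hold darkness as well as high light, and these cannot be told apart. The lines were flu, a mutant that lacks a brake on chlorophyll synthesis and gathers the photosensitiser protochlorophyllide in darkness, which yields singlet oxygen on return to light; mbs1-1, which carries a mutation in the zinc finger gene MBS1; RNAi-MBS2/mbs1-1, in which the same mutation is joined by RNA interference against the gene MBS2; 35S:MBS1, in which a constitutive viral promoter drives MBS1; and the wild type. The series' design compares the MBS lines under light stress with wild type and flu as controls. How many independent transgenic lines stood behind 35S:MBS1 and RNAi-MBS2/mbs1-1, and how many seedlings made up a sample, is not given in the sources used here.

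Values are log2 signal as the authors deposited it, so a difference of 1 is a doubling, and levels are not compared between genes, because probe sets differ in brightness. Differences are log2 fold changes with limma's standard error or 95% interval, and a gene was called where limma's Benjamini-Hochberg adjusted p over all 22746 probe sets was under 0.05. The precision of each value is limited by 3 arrays per group. Array means lay between 6.70 and 6.77 for 28 arrays and were higher for 2 arrays, replicate 1 of mbs1-1 at 3 h (6.96) and replicate 1 of wild type at 0 h (6.88). The annotation matched no probe set to MBS1, MBS2 or FLU alone, so the levels of the targeted genes gave no check of the labels. Of the green shoot markers 1 of 9 was matched, the antenna gene LHCB4.1, at 12.95 to 14.01 over the 30 arrays. Of the root hair and root markers 2 of 8 were matched, EXPA7 at 2.63 to 3.32 and EXPA18 at 4.21 to 5.98. None of the 4 epidermis markers was matched. RNA of whole shoots was measured, so fewer cells with a transcript and less transcript per cell cannot be told apart.

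PRK, RCA and CaS were lower in flu seedlings after 3 h of high light than in every other group, and the means of the other 9 groups spanned at most 0.31 log2 units. PRK had 11.49, 11.54 and 11.06 on the flu 3 h arrays, against 12.03, 12.26 and 12.51 on the flu 0 h arrays. All 3 flu 3 h arrays lay below all flu 0 h arrays. In mbs1-1, PRK had 12.30, 12.29 and 12.21 at 3 h, against 12.22, 12.21 and 12.09 at 0 h. RNAi-MBS2/mbs1-1 gave 12.47, 12.01 and 12.36 for PRK at 3 h, against 12.06, 11.86 and 12.28 at 0 h. PRK was at 12.34, 12.14 and 12.28 in 35S:MBS1 at 3 h, against 12.15, 12.15 and 12.01 at 0 h. In these 3 lines the 3 h and 0 h arrays overlapped for PRK. Wild type seedlings had 12.06, 12.16 and 12.08 for PRK at 3 h, against 12.15, 12.09 and 12.00 at 0 h, which is 1 range for both times.

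RCA stood at 12.13, 12.23 and 11.87 on the flu 3 h arrays, against 12.54, 12.90 and 12.83 on the flu 0 h arrays. Again no flu 3 h array reached the lowest flu 0 h array. The RCA values of mbs1-1 were 12.86, 12.72 and 12.66 at 3 h, against 12.79, 12.85 and 12.86 at 0 h. Those of RNAi-MBS2/mbs1-1 were 12.81, 12.61 and 12.77 at 3 h, against 12.83, 12.70 and 12.89 at 0 h. The times overlapped in both lines. In 35S:MBS1 RCA had 12.62, 12.67 and 12.69 at 3 h, against 12.79, 12.89 and 12.89 at 0 h. In wild type it had 12.67, 12.75 and 12.68 at 3 h, against 12.79, 12.91 and 12.87 at 0 h. In 35S:MBS1 and in wild type the 3 h arrays thus all lay a little below the 0 h arrays, and limma called neither change (adjusted p = 0.136 and 0.258). The share of all probe sets with such a gap between 3 and 3 arrays is not given here, so a gap alone says little.

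CaS had 11.26, 11.49 and 11.04 on the flu 3 h arrays, against 11.86, 11.98 and 12.01 on the flu 0 h arrays, with a wide gap between the times. In mbs1-1, CaS had 12.00, 11.98 and 12.01 at 3 h, against 11.82, 11.94 and 11.73 at 0 h. In RNAi-MBS2/mbs1-1 it had 12.00, 11.78 and 11.93 at 3 h, against 11.62, 11.62 and 11.88 at 0 h. The 3 h arrays of mbs1-1 all lay above its 0 h arrays, and those of RNAi-MBS2/mbs1-1 overlapped with them. The CaS values of 35S:MBS1 were 12.07, 12.04 and 11.95 at 3 h, against 11.90, 11.77 and 11.88 at 0 h. Those of wild type were 11.86, 11.87 and 12.02 at 3 h, against 11.93, 11.85 and 11.64 at 0 h. The direction was upward in the means of all 4 lines and opposite to that in flu, and the arrays of the 2 times were apart in 35S:MBS1 but not in wild type. Limma called none of the changes of CaS in these 4 lines.

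**Figure D1:**
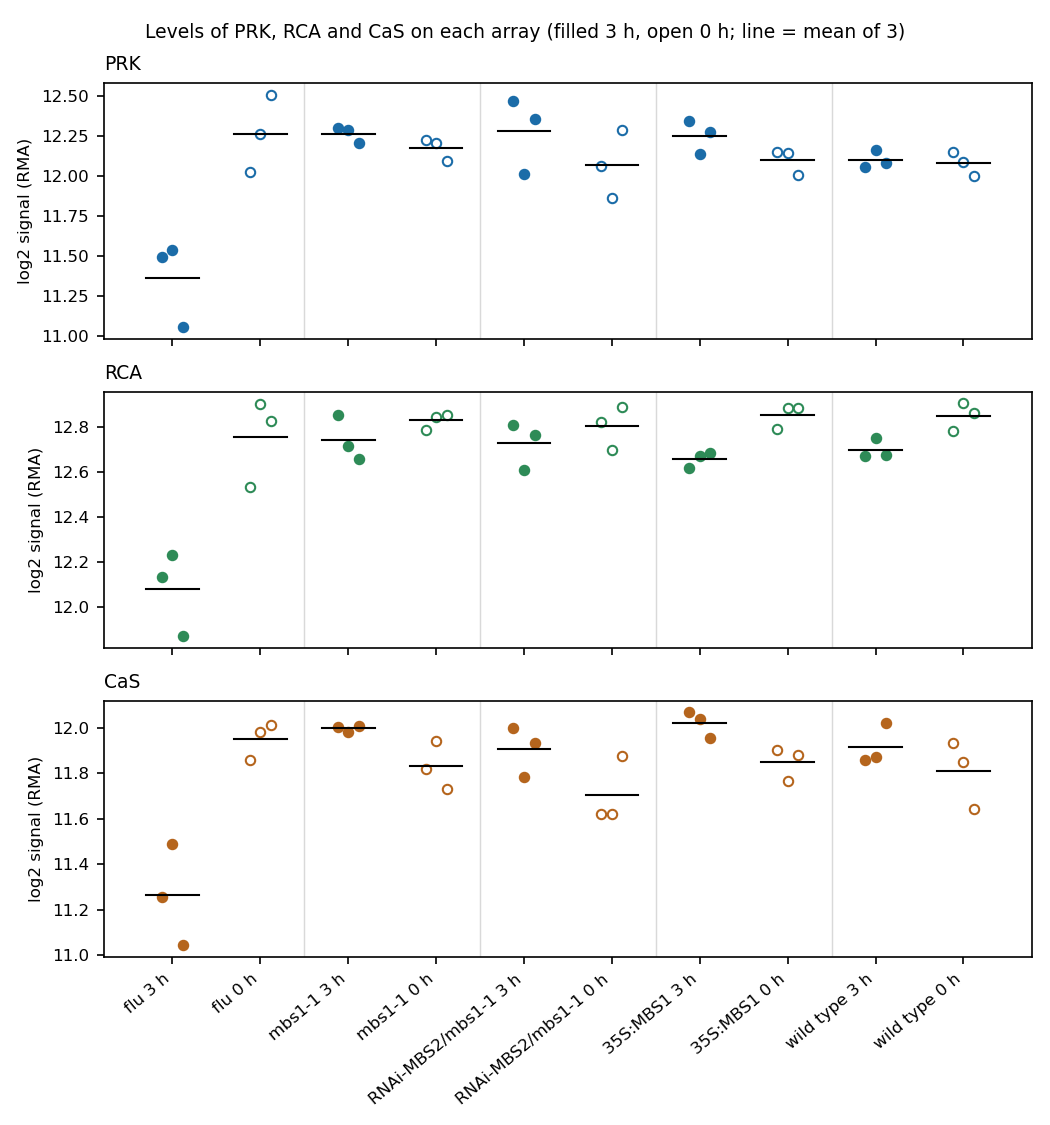
Log2 signal of PRK, RCA and CaS on each of the 30 arrays, by line and time on the x axis; filled points are 3 h arrays, open points 0 h arrays and lines the mean of 3, and each panel has its own y axis that does not start at 0. The 3 flu 3 h arrays lie below all other 27 arrays for each gene, by 0.32 for PRK, 0.30 for RCA and 0.13 for CaS.

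The highest flu 3 h array was at 11.54 for PRK, and the lowest of the other 27 arrays was at 11.86. For RCA these values were 12.23 and 12.54, and for CaS 11.49 and 11.62. Of all 22746 probe sets, 4.40% had the 3 flu 3 h arrays below all other 27 arrays, and all 3 genes were among them. The other 9 group means spanned 0.21 for PRK, 0.19 for RCA and 0.31 for CaS. With the 10 groups ranked by mean, 8 of the 9 steps between neighbours had overlapping arrays for each gene, and the step that did not was the one down to flu 3 h. The order of the others differed between genes. The 0 h means of RCA in all 5 lines were above its 3 h means in all 5 lines, with 35S:MBS1 0 h highest at 12.85 ± 0.05 (SD, n = 3) and flu 3 h lowest at 12.08 ± 0.19. CaS was highest in 35S:MBS1 3 h, at 12.02 ± 0.06, and lowest in flu 3 h, at 11.26 ± 0.22, with RNAi-MBS2/mbs1-1 0 h next above it at 11.71 ± 0.15. PRK was highest in RNAi-MBS2/mbs1-1 3 h, at 12.28 ± 0.24, and lowest in flu 3 h, at 11.36 ± 0.27, below RNAi-MBS2/mbs1-1 0 h at 12.07 ± 0.21. Pooled over the 10 groups, the spread was small against most of the array, with residual SDs of 0.163 for PRK, 0.107 for RCA and 0.119 for CaS. The median over all probe sets was 0.20. Within flu 3 h the SDs were above the pooled ones, at 0.27 for PRK, 0.19 for RCA and 0.22 for CaS, and limma's SEs draw on the pooled spread. Replicate 3 was the lowest of the flu 3 h arrays for all 3 genes.

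In flu seedlings all 3 transcripts fell. PRK changed by -0.90 ± 0.14 (log2, SE, n = 3 arrays per group) between 3 h and 0 h, which left 0.535 times its 0 h signal (limma adjusted p = 4.24e-06). RCA changed by -0.68 ± 0.11, to 0.625 times its 0 h signal (limma adjusted p = 5.2e-06), and CaS by -0.69 ± 0.11, to 0.621 times (limma adjusted p = 9.67e-06). Calls were common in this comparison: 48.1% of the probe sets were called and 25.1% were called lower, so a call alone says little about these genes. The size of their changes was not extreme either, since 10.4% of all probe sets fell further than PRK, 15.3% further than RCA and 15.0% further than CaS.

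In the other 4 lines none of the 12 changes of PRK, RCA and CaS was called, although a similar share of the array was: 44.6% of probe sets for mbs1-1, 45.6% for RNAi-MBS2/mbs1-1, 47.0% for 35S:MBS1 and 45.5% for wild type. In wild type the change was 0.02 for PRK (95% interval -0.26 to 0.30, limma adjusted p = 0.927), -0.15 for RCA (-0.37 to 0.06, limma adjusted p = 0.258) and 0.11 for CaS (-0.12 to 0.34, limma adjusted p = 0.469). These intervals leave room for moderate changes in either direction and do not show that the levels were constant, but none reaches the change seen in flu. PRK changed by 0.09 in mbs1-1 (-0.19 to 0.37), by 0.21 in RNAi-MBS2/mbs1-1 (-0.07 to 0.49) and by 0.15 in 35S:MBS1 (-0.13 to 0.43). RCA changed by -0.09 in mbs1-1 (-0.30 to 0.13), by -0.08 in RNAi-MBS2/mbs1-1 (-0.29 to 0.14) and by -0.19 in 35S:MBS1 (-0.41 to 0.02). CaS changed by 0.17 in mbs1-1 (-0.06 to 0.40), by 0.20 in RNAi-MBS2/mbs1-1 (-0.03 to 0.43) and by 0.17 in 35S:MBS1 (-0.06 to 0.40). In each of these 4 lines PRK and CaS had a positive difference and RCA a negative one.

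The mean change over these 4 lines, which rests on 24 arrays and was added after the single changes had been seen, had a narrower interval. CaS was 0.16 ± 0.06 higher at 3 h (95% interval 0.05 to 0.28, limma adjusted p = 0.0134), and RCA was 0.13 ± 0.05 lower (-0.24 to -0.02, limma adjusted p = 0.0368). PRK had a mean change of 0.12 ± 0.07 (-0.02 to 0.26, limma adjusted p = 0.14) and was not called. In this mean 64.1% of all probe sets were called, so calls of this size are the rule. The call of RCA was lost when any of 14 single arrays was left out, and that of CaS was kept in every alternative. Without mbs1-1 0 h replicate 2 or 3 the adjusted p of RCA was 0.0516 or 0.0543, and without mbs1-1 3 h replicate 2 or 3 it was 0.0538 or 0.0649. For RNAi-MBS2/mbs1-1 it was 0.0535 or 0.0652 without 0 h replicate 1 or 3, and 0.0737 without 3 h replicate 2. For 35S:MBS1 it was 0.0544 or 0.0557 without 0 h replicate 2 or 3, and 0.0544 without 3 h replicate 1. For wild type it was 0.0597 or 0.0507 without 0 h replicate 2 or 3, and 0.0554 or 0.0539 without 3 h replicate 1 or 3. The mean change itself moved little, from -0.14 to -0.11 over the single arrays left out.

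The change in flu differed from that in wild type for all 3 genes. The flu change minus the wild type change was -0.92 ± 0.19 for PRK (95% interval -1.32 to -0.52, limma adjusted p = 0.00313), -0.53 ± 0.15 for RCA (-0.83 to -0.22, limma adjusted p = 0.026) and -0.79 ± 0.16 for CaS (-1.12 to -0.47, limma adjusted p = 0.00176). Of all probe sets 8.41% were called in this difference and 3.28% were called lower. For RCA the call did not hold in 7 of the 20 alternatives: with only the 4 groups compared in the fit the adjusted p was 0.135, with both brighter arrays left out it was 0.051, and with 1 array left out it was 0.07 (flu 0 h replicate 2), 0.0556 (flu 0 h replicate 3), 0.0912 (flu 3 h replicate 3), 0.0602 (replicate 1 of wild type at 0 h) or 0.0644 (replicate 2 of wild type at 3 h). Set against the mean change of the other 4 lines, a contrast added after the values had been seen, the flu change differed by -1.02 ± 0.15 for PRK (limma adjusted p = 3.9e-05), -0.55 ± 0.12 for RCA (limma adjusted p = 0.00158) and -0.85 ± 0.12 for CaS (limma adjusted p = 2.77e-05). There 17.2% of probe sets were called and 9.14% were called lower, and no alternative ended a call of the 3 genes.

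**Figure D2:**
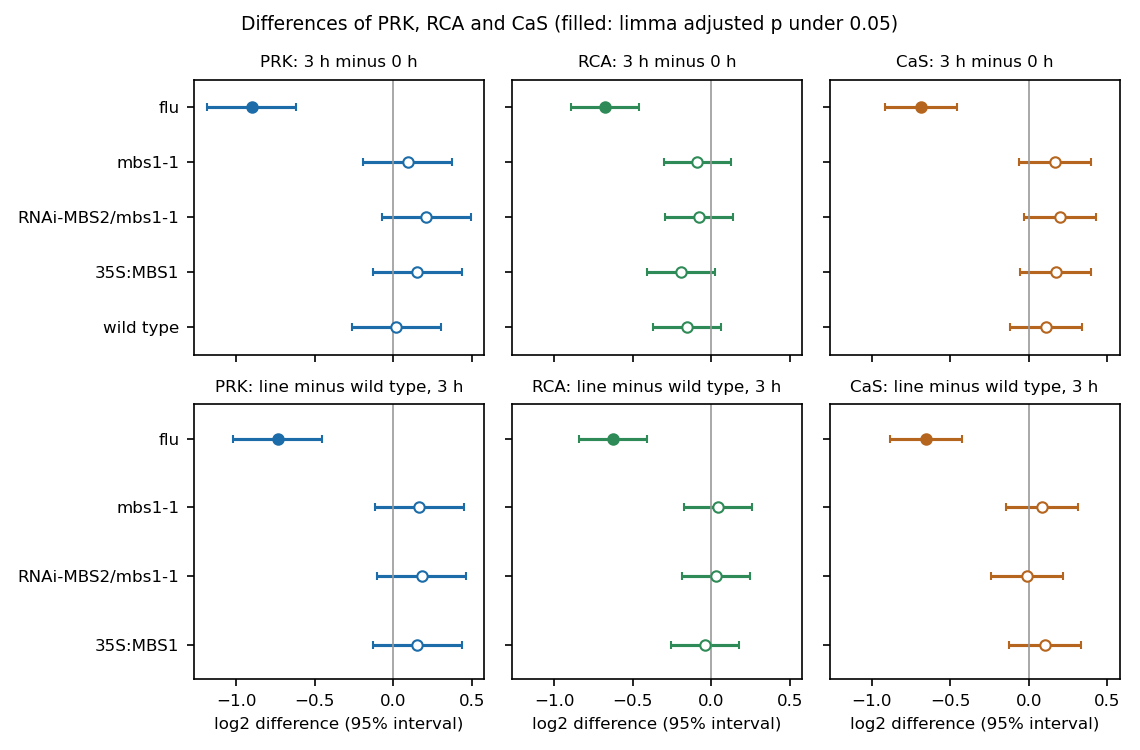
Log2 differences of PRK, RCA and CaS with limma's 95% intervals on the x axis, 3 h minus 0 h in each line (top) and each line minus wild type at 3 h (bottom); filled points have an adjusted p under 0.05. In both rows flu alone has filled points, at -0.62 or lower, and all other intervals include 0.

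At 3 h, where the seedlings of all lines had been through the same dark period and light, flu was below wild type for all 3 genes. PRK differed by -0.74 ± 0.14, or 0.60 times the wild type signal (limma adjusted p = 0.000371), RCA by -0.62 ± 0.11, or 0.649 times (limma adjusted p = 0.000114), and CaS by -0.65 ± 0.11, or 0.636 times (limma adjusted p = 0.000126). In this comparison 18.3% of the probe sets were called and 9.65% were called lower, and 2.74% of all probe sets lay further below wild type than PRK, 4.48% than RCA and 3.97% than CaS. The same held against the MBS lines, in comparisons that were added after the values had been seen and that share the flu 3 h arrays with each other. Against mbs1-1 flu had -0.90 for PRK, -0.67 for RCA and -0.73 for CaS (limma adjusted p at most 4.71e-05), where 24.3% of probe sets were called and 16.3% were called lower. Against RNAi-MBS2/mbs1-1 it had -0.92, -0.65 and -0.64 for PRK, RCA and CaS (limma adjusted p at most 0.000155), with 18.3% called and 9.46% called lower. Against 35S:MBS1 it had -0.89, -0.58 and -0.76 (limma adjusted p at most 0.000216), with 20.9% called and 10.8% called lower. The median of all probe sets was itself shifted by -0.14 between flu and mbs1-1 at 3 h, where 1 mbs1-1 array was brighter, and by 0.10 between 3 h and 0 h in mbs1-1, by 0.14 in that line's change against that of wild type and by -0.11 between RNAi-MBS2/mbs1-1 and mbs1-1 at 3 h; in the other comparisons it stayed within 0.1 of 0.

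Before high light, flu and wild type were not told apart by these genes. At 0 h flu minus wild type was 0.19 for PRK (95% interval -0.10 to 0.47, limma adjusted p = 0.715), -0.10 for RCA (-0.31 to 0.12, limma adjusted p = 0.828) and 0.14 for CaS (-0.09 to 0.37, limma adjusted p = 0.734), and 0.506% of all probe sets were called.

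PRK, RCA and CaS were not called in mbs1-1, RNAi-MBS2/mbs1-1 or 35S:MBS1 against wild type, nor in RNAi-MBS2/mbs1-1 against mbs1-1. The lines are named by their labels, since the level of MBS1 could not be read. Over the 9 comparisons of one line with another that leave out flu 3 h, flu against wild type at 0 h among them, the 27 differences ran from -0.13 to 0.19. Their 95% intervals lay between -0.39 and 0.47, and the lowest limma adjusted p was 0.715. The highest difference, the highest bound and that adjusted p belonged to PRK in flu against wild type at 0 h. In the comparisons of the MBS lines the highest difference was 0.18 (PRK, RNAi-MBS2/mbs1-1 minus wild type at 3 h, 95% interval -0.10 to 0.46). The lowest limma adjusted p of the MBS lines was 0.718 (PRK, mbs1-1 minus wild type at 3 h). Few probe sets were called in these comparisons at all. At 3 h it was 0.435% in mbs1-1 against wild type, 0.220% in RNAi-MBS2/mbs1-1 against wild type, 0.0176% in 35S:MBS1 against wild type and 0.00879% in RNAi-MBS2/mbs1-1 against mbs1-1. At 0 h the share was 0.0308% for mbs1-1 and also for RNAi-MBS2/mbs1-1 when set against wild type, 0.0176% for 35S:MBS1 set against wild type, and 0.00440% when RNAi-MBS2/mbs1-1 was set against mbs1-1. The 3 h arrays of mbs1-1 lay above those of wild type for PRK without overlap, with a difference of 0.16 (-0.12 to 0.45, limma adjusted p = 0.718). The change with high light in each MBS line minus that in wild type gave 9 values between -0.04 and 0.19, with intervals between -0.35 and 0.59 and a lowest limma adjusted p of 0.879. In those comparisons 0.0528% of probe sets were called for mbs1-1 and for RNAi-MBS2/mbs1-1, and 0% for 35S:MBS1, where limma gave 732 of 22746 at an unadjusted p under 0.05. Leaving aside the mean change over 4 lines, in which RCA and CaS were called, the 16 comparisons without flu 3 h gave 48 values of the 3 genes, with 0 called by limma and 0 at an unadjusted p under 0.05. Of all probe sets, 0% to 47.0% were called in these 16 comparisons, the high shares in the changes from 0 h to 3 h. The 6 comparisons with flu 3 h (its change from 0 h, the difference of that change from wild type, and the 4 comparisons with other lines at 3 h) gave 18 values, all 18 called and all lower in flu. In these 6 comparisons 8.41% to 48.1% of all probe sets were called. The 18 values share the same 3 flu 3 h arrays and are not independent.

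Control probe sets for RNA quality were read beside this. The actin 3' minus 5' difference was 6.93 to 6.98 on the flu 3 h arrays, against 6.17 to 7.02 on the 3 h arrays of the other 4 lines and 6.04 to 6.78 on the 0 h arrays. The GAPDH difference was 3.29 to 3.79 on the flu 3 h arrays, against 3.14 to 3.78 on the 3 h arrays of the other 4 lines and 3.30 to 3.98 on the 0 h arrays. The signal of the large subunit rRNA control was 4.27 to 4.49 on the flu 3 h arrays, against 3.70 to 4.84 on the 3 h arrays of the other 4 lines. Against the other 3 h arrays, the flu 3 h arrays thus lay near the top of the actin range and inside the rRNA range. For GAPDH they reached slightly above that range. The part of RNA quality in the flu result was not tested.

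Genes that work beside PRK, RCA and CaS were read from 7 fixed lists of 106 further genes, of which 24 were measured by a probe set of their own, so the lists stand for these few genes only. At 3 h all 24 had lower means in flu than in wild type, and 15 of them were called lower and 0 higher, beside the 9.65% of all probe sets called lower; their median difference was -0.44, against -0.05 for all probe sets. The change from 0 h to 3 h was lower in flu than in wild type for all 24 as well, with 9 called lower, beside 3.28% of all probe sets, and a median difference of -0.46, against 0.01. In the change with high light, counting called genes only, 3 of the 24 rose and 14 fell in flu (median of all 24 -0.32), where 23.0% of all probe sets were called higher and 25.1% lower. In wild type 9 rose and 5 fell (median 0.18), where 21.1% of all probe sets were called higher and 24.4% lower, so that the genes that fell made up a share near that of the array. For mbs1-1 12 rose and 3 fell, with 25.9% of the array called higher and 18.8% lower. RNAi-MBS2/mbs1-1 had 10 that rose and 3 that fell, with 21.2% and 24.5% of the array called higher and lower, and 35S:MBS1 had 9 and 4, with 22.0% and 25.0%. Every contrast with flu 3 h shares those 3 arrays. In the 9 comparisons of lines without flu 3 h, limma called 0 of the 216 values of these genes, and 6 had an unadjusted p under 0.05. Few calls were made there at all, from 0.00440% to 0.506% of all probe sets. Per comparison limma gave 864 to 2432 of the 22746 probe sets an unadjusted p under 0.05.

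**Figure D3:**
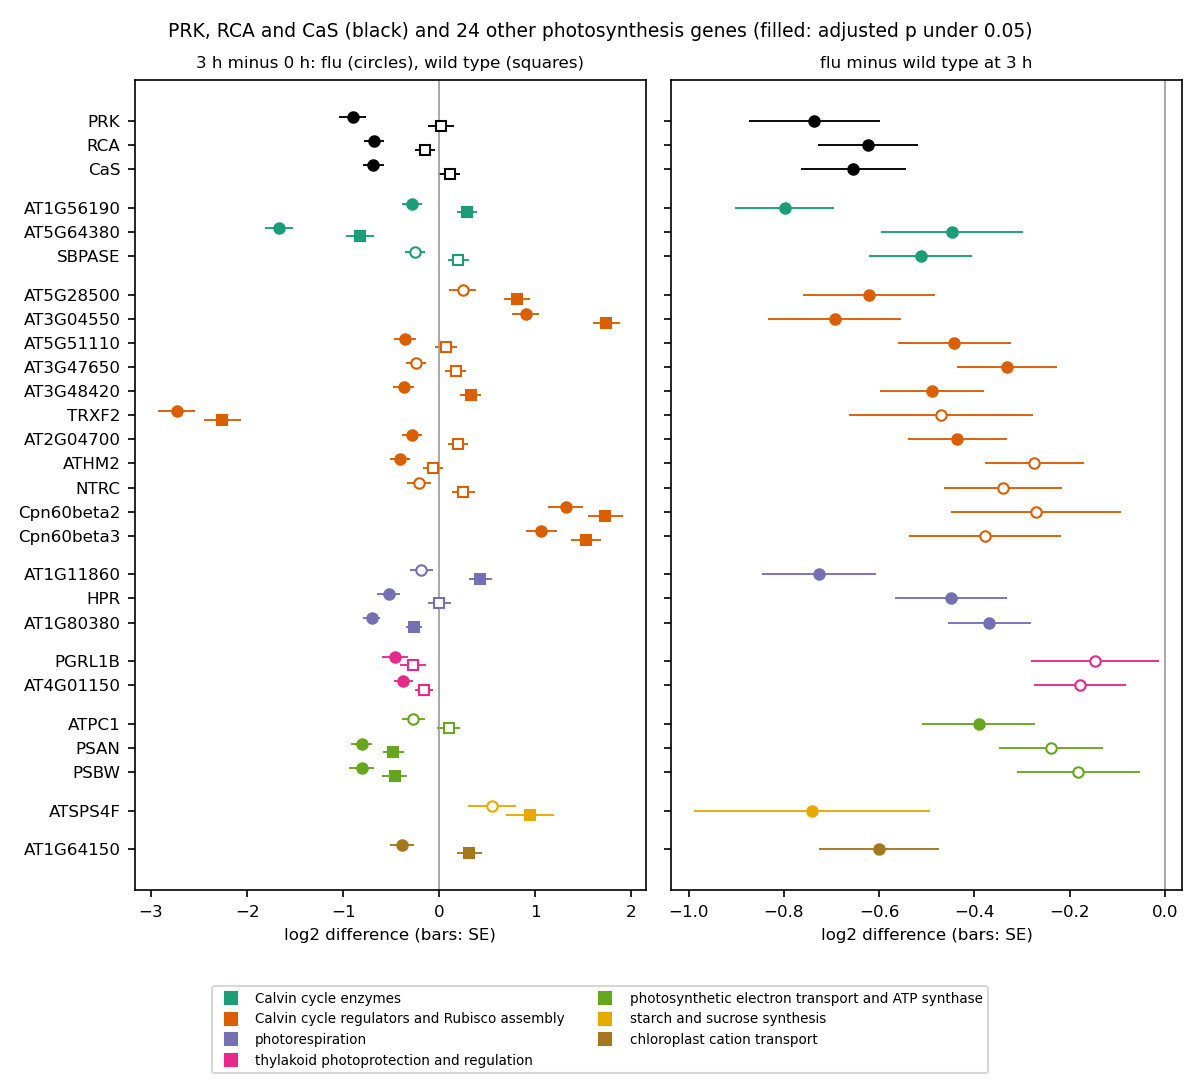
Log2 differences with SE on the x axis for PRK, RCA, CaS (black) and 24 other photosynthesis genes coloured by list: 3 h minus 0 h in flu (circles) and wild type (squares) at left, and flu minus wild type at 3 h at right. Filled points have an adjusted p under 0.05; all 27 genes lie below 0 at right, while at left the genes move in both directions.

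Of the other Calvin cycle enzymes 3 of 21 were measured, and all 3 were called lower in flu than in wild type at 3 h, beside 9.65% of all probe sets. AT1G56190, a phosphoglycerate kinase, had 10.27 ± 0.11 in flu 3 h, against 11.07 ± 0.10 in wild type 3 h (SD, n = 3 each). Its change with high light was opposite in the 2 lines, -0.28 ± 0.10 in flu (limma adjusted p = 0.0264) and 0.29 ± 0.10 in wild type (limma adjusted p = 0.0249), and the difference of these changes was -0.57 ± 0.15 (limma adjusted p = 0.0144). AT5G64380, a fructose bisphosphatase, had 6.77 ± 0.07 in flu 3 h, against 7.22 ± 0.14 in wild type 3 h. Unlike PRK it fell in both lines: it fell by 1.67 in flu and fell by 0.82 in wild type on the log2 scale, and the difference of the changes was -0.84 ± 0.21 (limma adjusted p = 0.0113). SBPASE, the sedoheptulose bisphosphatase that acts in the same regeneration phase as PRK, had 12.32 ± 0.17 in flu 3 h, against 12.83 ± 0.11 in wild type 3 h. Its difference between the lines was called (-0.51 ± 0.11, limma adjusted p = 0.00126), and its changes of -0.25 in flu and 0.20 in wild type were not.

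Among the genes that regulate the cycle or help Rubisco to assemble, where RCA belongs, 11 of 24 were measured. Counting calls only, 3 of them rose and 5 fell in flu, beside 23.0% of the array called higher and 25.1% lower, so that the 3 that rose are near the share of the array. In wild type 5 rose and 1 fell, beside 21.1% and 24.4% of the array. At 3 h 6 were called lower in flu than in wild type, beside 9.65% of the array. TRXF2, a thioredoxin of the type that activates Calvin cycle enzymes in the light, changed most, by -2.73 ± 0.19 in flu (limma adjusted p = 7.77e-12) and by -2.26 ± 0.19 in wild type (limma adjusted p = 3.43e-10). Its difference between flu and wild type at 3 h was -0.47 and was not called. The chaperonin subunit gene Cpn60beta2, whose protein helps chloroplast proteins to fold, rose by 1.31 ± 0.18 in flu and by 1.73 ± 0.18 in wild type, and Cpn60beta3 rose by 1.06 ± 0.16 in flu. AT3G04550, a Rubisco accumulation factor, rose by 1.74 ± 0.14 in wild type, and the flu change minus the wild type change was -0.84 ± 0.20 (limma adjusted p = 0.00794). AT5G28500, of the same family, was lower in flu than in wild type at 3 h, with a difference of -0.62 ± 0.14 (limma adjusted p = 0.00207). AT3G48420, listed as the phosphatase CbbY that clears a Rubisco inhibitor, had -0.49 ± 0.11 in the same comparison (limma adjusted p = 0.00215) and -0.70 in the difference of changes. The ferredoxin-thioredoxin reductase subunit AT2G04700 had -0.48 ± 0.15 in the difference of changes (limma adjusted p = 0.043).

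Photorespiration recycles the product of Rubisco's reaction with oxygen. Its 3 measured genes of 14 were all called lower in flu than in wild type at 3 h, beside 9.65% of all probe sets. All 3 were also called lower in the difference of the changes with high light, beside 3.28% of all probe sets. At 3 h flu differed from wild type by -0.73 ± 0.12 for AT1G11860, the T protein of glycine decarboxylase (limma adjusted p = 8.57e-05). The difference was -0.45 ± 0.12 for HPR, a hydroxypyruvate reductase (limma adjusted p = 0.00784), and -0.37 ± 0.09 for AT1G80380, a glycerate kinase (limma adjusted p = 0.00368). HPR fell in flu, by 0.53 on the log2 scale, and AT1G80380 fell by 0.70 in flu and by 0.26 in wild type, while AT1G11860 rose by 0.43 in wild type.

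Of the genes that adjust the thylakoid, the membrane in which CaS sits, 2 of 11 were measured. Both were called lower in the change in flu, beside 25.1% of all probe sets. PGRL1B, which takes part in cyclic electron flow, fell by 0.46 on the log2 scale (limma adjusted p = 0.00579). AT4G01150, listed as the membrane curvature protein CURT1A, fell by 0.37 (limma adjusted p = 0.00202). Neither was called between flu and wild type at 3 h, where AT4G01150 had -0.18 (limma adjusted p = 0.224), nor in the difference of changes, where it had -0.22 (limma adjusted p = 0.408). Of 22 electron transport and ATP synthase genes 3 were measured. The photosystem subunit genes PSAN and PSBW fell in both lines, PSAN by 0.81 in flu and by 0.48 in wild type and PSBW by 0.81 in flu and by 0.46 in wild type. ATPC1, the gamma subunit of the ATP synthase, was lower in flu than in wild type at 3 h, with a difference of -0.39 ± 0.12 (limma adjusted p = 0.0215), and its difference of changes of -0.37 was not called (limma adjusted p = 0.204). AT1G64150, listed as a thylakoid transporter of divalent cations and the 1 measured gene of 4 on its list, fell by 0.39 in flu (limma adjusted p = 0.012) and rose by 0.32 in wild type (limma adjusted p = 0.0441). The difference of these changes was -0.71 ± 0.18 (limma adjusted p = 0.013), beside -0.79 for CaS. ATSPS4F, a sucrose phosphate synthase and the 1 measured gene of 10 for starch and sucrose, rose by 0.95 ± 0.25 in wild type (limma adjusted p = 0.00244), had 0.55 in flu (limma adjusted p = 0.0698), and was -0.74 ± 0.25 in flu against wild type at 3 h (limma adjusted p = 0.0367).

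The genes most like each of the 3 in pattern were taken by Pearson's r over the 10 group means, among 4206 genes whose group means spanned at least 1 log2 unit. The points share arrays and 5 lines, and 1 point, flu 3 h, weighs most. Each gene named below spanned at least 1 log2 unit only with flu 3 h counted. Its low flu 3 h level thus followed from the selection and is not a result. PRK, RCA and CaS did not reach that span themselves. Over the 10 means PRK and CaS had r = 0.96, PRK and RCA 0.86 and RCA and CaS 0.78. Without flu 3 h, over 9 means, PRK and CaS still had 0.77, but PRK and RCA had -0.58 and RCA and CaS -0.74. RCA therefore shared with PRK and CaS the low flu 3 h level, and its other 9 means were ordered otherwise. Those 9 means spanned at most 0.31 log2 units for each gene, and the arrays of neighbouring groups overlapped. Whether their order reflects more than the spread of single arrays was not tested. The genes most like PRK were AT2G28810 (r = 0.93), AT2G18360 (r = 0.92) and AT1G23030 (r = 0.89), and without flu 3 h their r was 0.18, 0.30 and -0.15. Those most like RCA were AT5G27950 (r = 0.98), YAB5 (r = 0.97) and AT4G19380 (r = 0.97), with 0.77, 0.63 and 0.89 without flu 3 h. Those most like CaS were AT4G17370 (r = 0.89), AT5G52780 (r = 0.89) and AT5G16870 (r = 0.88), with 0.69, 0.81 and 0.40 without flu 3 h. Without flu 3 h the r was thus higher for the genes picked for RCA and CaS than for those picked for PRK. The other 9 means were part of the selection too, so these r are a description and not a result. YAB5, a YABBY transcription factor gene, had a mean of 8.16 in flu 3 h, against 9.42 to 9.83 in the other 9 groups. AT2G28810 had 7.23 in flu 3 h, against 7.98 to 8.30 in the others, and AT4G17370 had 7.72, against 8.27 to 8.85. Over the 30 single arrays AT2G28810 had r = 0.86 with PRK, YAB5 had 0.89 with RCA and AT4G17370 had 0.82 with CaS.

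**Figure D4:**
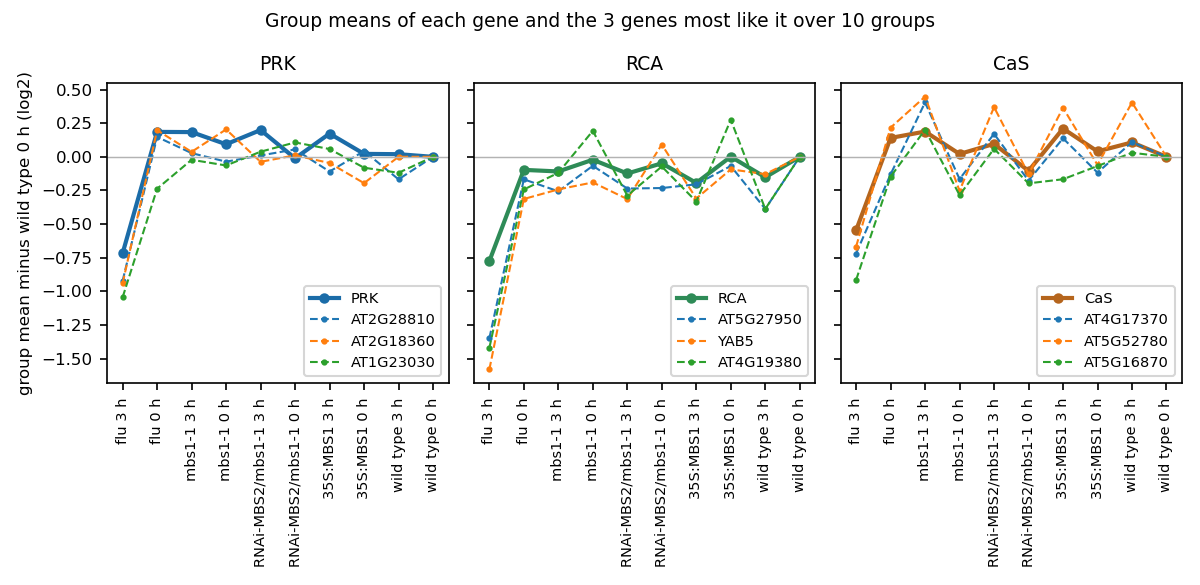
Group means minus the wild type 0 h mean (log2, y axis) in the 10 groups (x axis) for PRK, RCA and CaS (thick lines) and the 3 genes most like each by Pearson's r (dashed lines). All lines are lowest at flu 3 h, which for the dashed lines follows from how their genes were selected. Elsewhere the dashed lines follow RCA and CaS more closely than PRK, and those groups were part of the selection too.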

How the data were processed

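Per the submitters' processing notes, the authors' deposited values are log2 signal from RMA, run in affy. No version, genome build or statement on joint normalization of the 30 arrays is given in the sources used here. Scanner files were not analysed. The table had 22810 probe sets, 64 of them controls, which left 22746 for testing. By the annotation 13513 belonged to exactly 1 gene, 503 were shared by several genes and 8730 had no match. Arrays were grouped by their labels. One linear model of the 10 group means, fitted in limma 3.58.1 (R 4.3.3) on the 30 arrays, gave all comparisons, and p-values were adjusted by Benjamini and Hochberg's method over the 22746 probe sets. There were 19 comparisons, and 5 were added after the values were seen. Tables and plots were made with Python 3.11.15, pandas 2.3.3 and matplotlib 3.10.9. The steps were tested on simulated data.

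The 3 genes and the lists were chosen with earlier results of these data known. Named genes were PRK, RCA and CaS and, of each list in 4 comparisons (the change in flu and in wild type, flu against wild type at 3 h, and the difference of the flu change), up to 3 called genes with the largest change, or, where none was called, the 1 gene of smallest p. A planned search of promoters was not run, since no promoter sequences were used here.

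Alternatives were a fit to the compared groups alone, a replicate block, quantile normalization, centring on the median, a filter on dim probe sets (mean below 5), a restriction to probe sets with 1 gene, a trended and robust variance prior, both brighter arrays left out, and each array left out in turn. Deviations of same-numbered arrays correlated at -0.31 to 0.37, and all 3 pairs passed 0.1 in 2 of 18 comparisons, the change in 35S:MBS1 and 35S:MBS1 against wild type at 0 h. The labels name no shared batch, and arrays with different numbers were not compared in this way. The check therefore does not show that the numbers pair the samples.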

Additional observations from a re-analysis of the deposited data

Results flagged for a closer look

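The change with high light differed between lines for all 3 genes, by a test of the difference itself. The change in flu minus that in wild type was -0.92 for PRK, -0.53 for RCA and -0.79 for CaS (limma adjusted p = 0.00313, 0.026 and 0.00176). The change in flu minus the mean change of the other 4 lines, a contrast added after the values had been seen, was -1.02 for PRK, -0.55 for RCA and -0.85 for CaS (limma adjusted p = 3.9e-05, 0.00158 and 2.77e-05). Both contrasts rest on the same flu arrays. For RCA the first of them was lost in 7 of 20 alternatives.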

How the results depend on the processing

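Of the 72 values of PRK, RCA and CaS, 23 were called, and 21 of these kept direction and call in every alternative run. With flu 3 h, PRK and CaS kept their calls in all alternatives. The highest limma adjusted p over the alternatives for the change in flu was 0.00594 for PRK, 0.0105 for RCA and 0.00739 for CaS. For flu against wild type at 3 h it was 0.0156 for PRK, 0.0149 for RCA and 0.0183 for CaS. The difference of the flu and wild type changes of RCA was -0.53 (limma adjusted p = 0.135) with only the groups compared, -0.49 (0.051) without both brighter arrays and -0.64 to -0.42 with single arrays left out. The mean change of RCA in the other 4 lines was -0.14 to -0.11 with single arrays left out. None of the 49 uncalled values became called. Small uncalled values changed sign 48 times in 19 results, at most 0.093 from 0 and with adjusted p of at least 0.879; the cause was not tested. Quantile normalization gave for mbs1-1 against wild type at 0 h 0.0195 (RCA), for RNAi-MBS2/mbs1-1 against wild type 0.0421 (PRK, 0 h), 0.0043 (RCA, 0 h) and -0.0025 (RCA, 3 h), for the mbs1-1 change against that of wild type -0.0302 (PRK), -0.0059 (RCA) and -0.0047 (CaS), and for the RNAi-MBS2/mbs1-1 change -0.0068 (RCA). Centring on the median gave, in the same order of comparisons, 0.0044 (RCA), 0.0175 (PRK, 0 h) and 0.0277 (CaS, 3 h), then -0.0025 (PRK), -0.0084 (RCA) and -0.0137 (CaS) for the mbs1-1 change, besides -0.0039 (RCA, mbs1-1 against wild type at 3 h) and 0.0707 (RCA, RNAi-MBS2/mbs1-1 against mbs1-1 at 3 h). Without both brighter arrays the values were -0.0327 (RCA, 35S:MBS1 against wild type at 0 h), 0.0241 (PRK, RNAi-MBS2/mbs1-1 against wild type at 0 h), -0.0123 (RCA, mbs1-1 against wild type at 3 h), 0.0403 (RCA, RNAi-MBS2/mbs1-1 against mbs1-1 at 3 h) and -0.0047 (CaS, mbs1-1 change). With single arrays left out, PRK ran from -0.019 to 0.0547 for the wild type change, -0.0165 to 0.0692 for 35S:MBS1 and -0.1188 to 0.0929 for RNAi-MBS2/mbs1-1 against wild type at 0 h, and -0.0792 to 0.1488 for RNAi-MBS2/mbs1-1 against mbs1-1 at 3 h. RCA ran from -0.0327 to 0.0327 for 35S:MBS1, -0.1714 to 0.0135 for flu, -0.0554 to 0.0055 for mbs1-1 and -0.0905 to 0.0047 for RNAi-MBS2/mbs1-1 against wild type at 0 h, -0.0123 to 0.0851 for mbs1-1 and -0.0139 to 0.0882 for RNAi-MBS2/mbs1-1 against wild type at 3 h, and for RNAi-MBS2/mbs1-1 against mbs1-1 from -0.0689 to 0.0263 at 0 h and -0.0571 to 0.045 at 3 h. CaS ran from -0.0428 to 0.1027 for 35S:MBS1 and -0.062 to 0.0834 for mbs1-1 against wild type at 0 h, -0.0579 to 0.0499 for RNAi-MBS2/mbs1-1 against wild type at 3 h, and -0.0028 to 0.1427 for the mbs1-1 change.

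The replicate block changed no call of PRK, RCA or CaS. With it limma called 10673 probe sets in the change of 35S:MBS1 (10687 without), 3 in 35S:MBS1 against wild type at 0 h (4 without), 5 in RNAi-MBS2/mbs1-1 against mbs1-1 at 3 h (2 without), 8 in the mbs1-1 change against that of wild type (12 without) and 7 in that of RNAi-MBS2/mbs1-1 (12 without). With only the groups compared, the count of called probe sets fell by over 1.5 times in some comparisons, to 8 in flu against wild type at 0 h (115 with all arrays), 2 in mbs1-1 (99) and 14 in RNAi-MBS2/mbs1-1 (50) against wild type at 3 h, 1077 in the flu change against that of wild type (1912), and 3074 in flu against mbs1-1 at 3 h (5523). It fell to 2 in 35S:MBS1 against wild type at 0 h (4) and at 3 h (4), 2 in RNAi-MBS2/mbs1-1 against wild type at 0 h (7), 3 in the changes of mbs1-1 and RNAi-MBS2/mbs1-1 against that of wild type (12 each), and 0 in RNAi-MBS2/mbs1-1 against mbs1-1 at 0 h (1) and 3 h (2). In the other comparisons it moved less, and it was higher in mbs1-1 against wild type at 0 h (8, against 7), in the wild type change (10355, against 10345) and in the mean change of 4 lines (14702, against 14571). Of the other Calvin cycle enzymes 2 were called in the change in flu and 2 in that of wild type with all arrays. Of all probe sets 48.1% and 45.5% were called there. With only the groups compared 1 was called in flu and 1 in wild type, and without both brighter arrays 1 in wild type. With single arrays left out 1 to 3 were called in flu and 1 to 2 in wild type. The count was 1 without flu 0 h replicate 2, flu 3 h replicate 3, wild type 0 h replicate 1 or 3, or wild type 3 h replicate 2. Over the 30 arrays in place of group means, r with PRK was 0.53 for AT2G18360 and 0.75 for AT1G23030, and r with RCA was 0.86 for AT5G27950 and 0.80 for AT4G19380. Leaving out dim probe sets, testing only probe sets with 1 gene and the other variance prior changed no call of the 3 genes.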
